A study of Homo sapiens with 6 samples.

Results

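ACTBL2 and 7 further transcripts of the cytoplasmic actin cytoskeleton (ACTB, ACTG1, ACTA2, ACTN1, ACTN4, CFL1 and PFN1) were followed in RNA that came down with Ago2, 8 of the 48162 genes in the deposited count table. They were matched by gene name, and each name occurred in 1 row. The genes were chosen by measured values: ACTBL2 was called lower with the microRNA-219 mimic by DESeq2 with the date of collection as a block, where its log2 fold change was −0.77 (SE 0.19) and its adjusted p, 0.0495, was the highest of the 11 genes called. The next gene outside the threshold of 0.05 had an adjusted p of 0.212. Because this contrast chose ACTBL2, and the others for their kinship to it, all mimic-against-control values of these 8 genes are a description without a test.

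The cells were HEK293, an established human embryonic kidney line. One group was cotransfected with Flag-Ago2 and mir-219 mimics (3 libraries) and the other with Flag-Ago2 and negative control mimics (3 libraries), so every library carries the tagged protein, the small-RNA-binding core of the silencing complex. Each group had 1 library from each of 22 August, 5 September and 18 September, and the RNA sequenced was what anti-Flag agarose pulled down. A level therefore mixes the abundance of a transcript in the cells with its share on Ago2, since input RNA was not used here, and fewer cells holding a transcript cannot be told from less of it per cell. The labels do not say whether the dates were separate cultures, so p-values measure the spread between these libraries, which may be technical.

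Actin is a globular protein that polymerises into filaments and gives cells their cortex, stress fibres and contractile rings. ACTB and ACTG1 encode the abundant beta and gamma cytoplasmic actins, ACTA2 the smooth muscle actin that also marks myofibroblasts in kidney fibrosis, and ACTBL2 a less studied beta-like actin. Cofilin (CFL1) severs filaments, profilin (PFN1) feeds monomers to growing ends, and the alpha-actinins ACTN1 and ACTN4 crosslink filaments. Free actin monomer also restrains MRTF, the partner of serum response factor, which acts on many actin genes through a DNA element called the CArG box.

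The transfected RNA is shown first, because it is what separates the groups. Which mature strand the mimics carry is not in the labels, so each RefSeq mature form of microRNA-219a (GRCh38.p14) is given, 5′ to 3′, with the seed, bases 2 to 8, in capitals. The 5p form is the same from both loci, and the seeds of the 3p forms differ from it and from each other.
hsa-miR-219a-5p: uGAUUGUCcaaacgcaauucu
hsa-miR-219a-1-3p: aGAGUUGAgucuggacgucccg
hsa-miR-219a-2-3p: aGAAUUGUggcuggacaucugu

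The promoters of ACTBL2 and ACTG1, actins whose levels lay far apart, are shown next. A link between a motif and a level was not tested. Each run holds the 250 bases before the annotated start (RefSeq, GRCh38.p14, gene strand, 5′ to 3′), at chr5:57482812-57483061 on the minus strand for ACTBL2 and chr17:81512800-81513049 on the minus strand for ACTG1. Capitals mark exact matches to the CArG box, to GGAATG or CATTCC (the core that TEAD factors bind) and to TTAAATA or TATTTAA (picked after the sequences were read), each searched on both strands.
ACTBL2: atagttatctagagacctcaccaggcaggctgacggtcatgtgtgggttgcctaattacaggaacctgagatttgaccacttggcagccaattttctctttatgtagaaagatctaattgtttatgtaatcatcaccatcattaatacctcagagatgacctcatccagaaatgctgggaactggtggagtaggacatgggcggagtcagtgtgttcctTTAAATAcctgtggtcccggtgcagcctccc
ACTG1: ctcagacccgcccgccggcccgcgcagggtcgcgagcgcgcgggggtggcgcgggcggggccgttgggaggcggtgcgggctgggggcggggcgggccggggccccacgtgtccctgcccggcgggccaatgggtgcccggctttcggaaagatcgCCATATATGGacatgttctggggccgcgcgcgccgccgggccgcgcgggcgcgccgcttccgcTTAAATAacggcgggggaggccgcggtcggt
Both windows held TTAAATA beginning at position −31 from the start. TTAAATA or TATTTAA, at any position, was found in 4.17% of 35116 such windows. The ACTG1 window also held a CArG box beginning at position −94, where 1.16% of windows held one at any position. The ACTBL2 window had no exact match to the CArG box. Neither window held GGAATG or CATTCC, found in 11.9% of windows, while 1 window each of ACTA2, ACTN1 and PFN1 did. Of the 8 genes, 7 were matched to a window, 12 windows in all. ACTB had no window and was not searched. Among the windows searched, the only other exact CArG box lay in 1 of the 4 ACTN1 windows. Near matches were not searched, so windows without an exact match, such as those of ACTA2, may still hold some. A match is a string of letters and not a measured binding site.

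Libraries held from 20233819 to 34408699 counts. AGO2 itself took 12.6 to 16.7% of them in mimic libraries and 10.6 to 18.0% in control libraries, highest on 5 September in each group. Counts scaled to the library total keep this share in the total. All 7 genes listed as typical of HEK293 cells, such as NEFL, VIM and KRT8, had counts in every library, with a summed level, as counts scaled to the library total (CPM), of 1718 to 1852 CPM in mimic libraries and 1620 to 2043 CPM in control libraries. Smooth muscle markers, which could bear on ACTA2, summed to 20.2 to 21.5 CPM in mimic libraries and 17.5 to 24.2 CPM in control libraries over 8 genes, with MYH11 and ACTG2 at 0 in at least 1 library, and most of the sum was SMTN (11.3 to 17.0 CPM). Intestinal and plasma cell markers (9 listed) summed to 0.318 to 22.6 CPM in mimic libraries and 1.08 to 40.1 CPM in control libraries, with IGKC at 0 throughout. Of 4 haemoglobin genes, HBB reached 678 CPM in 1 control library, that of 5 September, and elsewhere the list summed to at most 0.198 CPM. Their part in the results on actin genes was not tested.

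Per kilobase of gene model, ACTG1 and ACTB stood far above the rest. ACTG1 averaged 1571 ± 263 and ACTB 1497 ± 240 CPM per kb (SD, n = 6 libraries), and their ranges, 1210 to 1971 and 1210 to 1827, overlapped almost wholly. PFN1 followed at 265 ± 42.8, CFL1 at 139 ± 17.6, ACTN4 at 65.9 ± 7.96 and ACTN1 at 29.3 ± 3.85 CPM per kb, with no overlap between neighbours. ACTBL2 (6.40 ± 2.93) and ACTA2 (4.796 ± 0.832 CPM per kb) came last, with overlapping ranges of 3.22 to 10.8 and 3.74 to 5.67. On this per-length scale the mean level of ACTB was 234 times that of ACTBL2, and that of ACTG1 245 times.

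ACTBL2 (ENSG00000169067) lies at chr5:56775846-56778636 of hg19 on the minus strand, with a gene model of 2791 bases that has no intron. In date order, mimic libraries held 480, 407 and 183 counts of it and control libraries 777, 882 and 255, or 15.2, 14.7 and 8.98 CPM in mimic libraries against 30.1, 25.6 and 12.6 CPM in control libraries. Within each date the mimic library was the lower, but the groups overlapped, because the control library of 18 September lay below the mimic libraries of the earlier dates. Means were 13.0 ± 3.46 CPM in mimic libraries and 22.8 ± 9.09 CPM in control libraries (SD, n = 3 each), and the edgeR quasi-likelihood fit without a block put the log2 fold change at −0.81 (SE 0.31), or 0.571 times the control level. Date by date the log2 ratio was −0.89, −0.86 and −0.51. The log2 fold change was −0.54 without the control library of 22 August and −0.58 without the mimic library of 18 September, each time the smallest departures from 0 when 1 library was left out, and −1.11 without the control library of 18 September.

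**Figure D1:**
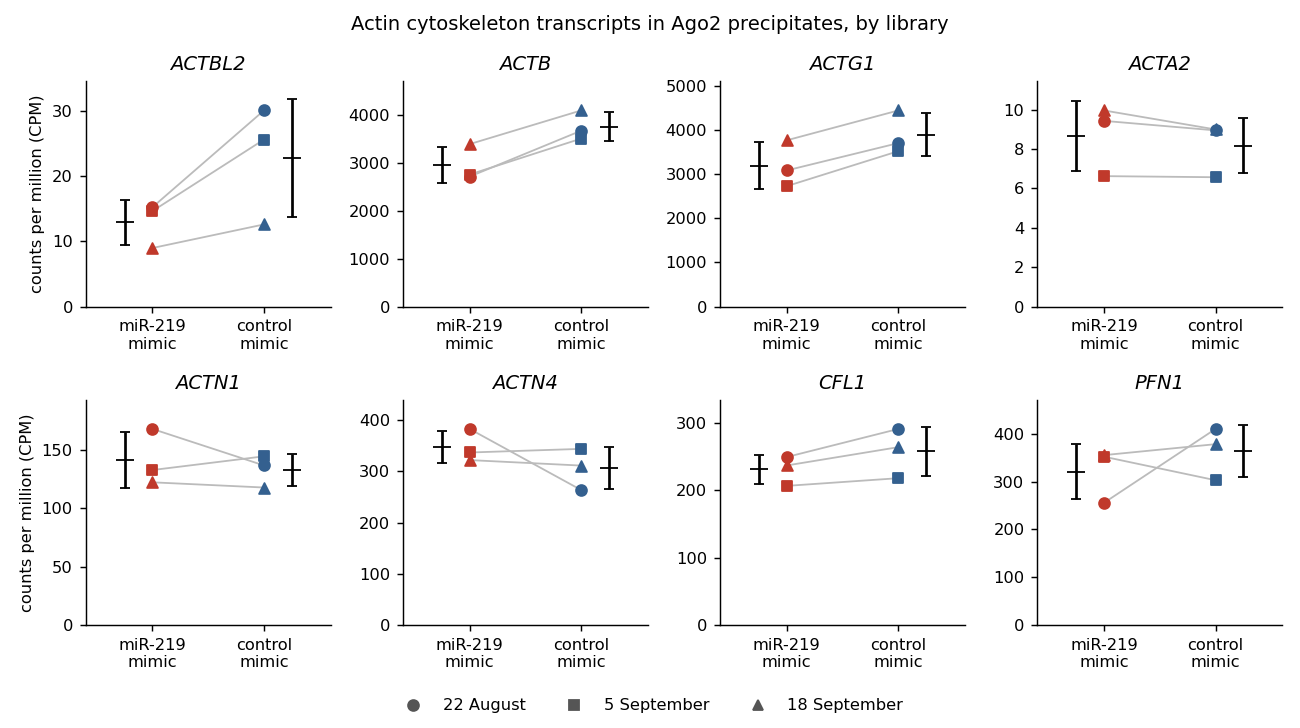
CPM of the 8 genes in each library (points, shaped by date and joined within a date) for the miR-219 mimic at left and the control mimic at right, with the mean and SD of 3 libraries as black bars. ACTBL2 lay between 8.98 and 15.2 CPM in mimic libraries and between 12.6 and 30.1 CPM in control libraries, with the triangles of 18 September lowest in both groups.

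ACTB (ENSG00000075624, chr7:5566782-5603415, minus strand) had 2717, 2760.4 and 3397 CPM in mimic libraries, against 3678, 3512 and 4101 CPM in control libraries. The groups did not overlap, and all mimic libraries were below all control libraries. Its log2 fold change was −0.35 (SE 0.17), with ratios of −0.35, −0.40 and −0.30 in date order. On plain CPM, without TMM scaling, ACTB was the 1 gene of the 8 whose groups stood apart. On the same scale 2.79% of the 16233 tested genes stood apart in this direction and 4.08% in the other.

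ACTG1 (ENSG00000184009, chr17:79476997-79490873, minus strand) had 3087, 2731 and 3771 CPM in mimic libraries, against 3707, 3524 and 4448 CPM in control libraries. Here the mimic library of 18 September was above the control libraries of the earlier dates, so the groups overlapped on plain CPM. That mimic library had the highest TMM scaling factor, 1.06, which plain CPM leaves out. The control libraries of 22 August and 5 September had factors of 0.977 and 0.984. Once divided by these factors, every mimic library lay below every control library, by a narrow margin. The overlap, and with it the contrast with ACTB, therefore holds on plain CPM only. The log2 fold change was −0.28 (SE 0.19), with ratios of −0.18, −0.42 and −0.26 in date order. ACTB per kilobase was 88.4, 101.6 and 90.5% of ACTG1 in mimic libraries and 99.7, 100.2 and 92.7% in control libraries, so the cytoplasmic actins kept close to each other in every library.

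The share of ACTBL2 relative to either was less steady. Per kilobase it was 0.451, 0.427 and 0.213% of ACTB in mimic libraries and 0.658, 0.587 and 0.247% in control libraries, in date order. Against ACTG1 it was 0.399, 0.434 and 0.192% in mimic libraries and 0.656, 0.588 and 0.229% in control libraries. The share was lower with the mimic on every date, and lower on 18 September than on the other dates with either mimic. On the log2 scale the ACTBL2 to ACTB ratio differed by −0.41 between mimic and control (SD over dates 0.17) and the ACTBL2 to ACTG1 ratio by −0.47 (SD 0.24). Library scaling cancels in these ratios. Without the mimic library of 18 September the differences were −0.06 and −0.10, and leaving out its control partner gave −0.85 and −0.95, where each omission leaves the dates unevenly represented.

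**Figure D2:**
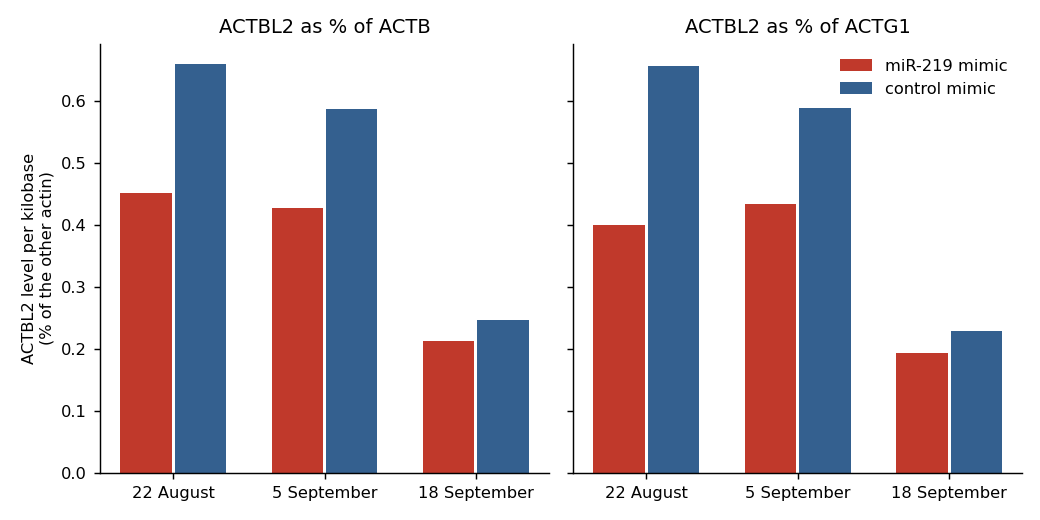
Level of ACTBL2 per kilobase as a percentage of ACTB (left panel) and of ACTG1 (right panel) in each of the 6 libraries, with the miR-219 mimic bar left of the control bar on each date. The share of ACTB ran from 0.213 to 0.658% over libraries, a 3.10-fold range, and that of ACTG1 over a 3.41-fold range.

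Actin genes resemble each other and have many copies, and how reads that fit several places were treated is not given in the sources used here. The table lists 18 ACTB and ACTG1 pseudogenes, which together took 15 to 47 counts per library, and 14 POTE genes (some carry an actin-like end), which together took at most 2. CTD-2023N9.1, on the opposite strand across the ACTBL2 locus, had 1 to 3 counts. The split of reads between ACTBL2, ACTB and ACTG1 was not tested, and the ACTBL2 counts are uncertain to that extent.

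ACTA2 (ENSG00000107796, chr10:90694831-90751147, minus strand), the muscle-type actin among the 8, was scarce and nearly level. It had 9.43, 6.62 and 9.96 CPM in mimic libraries and 8.95, 6.57 and 8.99 CPM in control libraries, which overlapped throughout (log2 fold change 0.10, SE 0.21). FAS (487 to 638 counts) and STAMBPL1 (374 to 534 counts) overlap it on the other strand, and ACTA2 itself had 182 to 297 counts. Whether counting used strand is not given in the sources used here, so its values are uncertain. The same holds for CFL1, which MUS81 overlaps, and PFN1, which ENO3 overlaps, though both were counted far more often than their neighbours.

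The crosslinkers had their largest log2 ratios on 22 August, 0.62 for ACTN4 and 0.38 for ACTN1. ACTN4 (ENSG00000130402, chr19:39138289-39222223, plus strand) had 383, 337 and 322 CPM in mimic libraries and 264, 344 and 311 CPM in control libraries. ACTN1 (ENSG00000072110, chr14:69340860-69446157, minus strand) had 168, 133 and 122 CPM in mimic libraries and 137, 145 and 118 CPM in control libraries. Both had their highest library with the mimic on 22 August, and the groups overlapped. Log2 fold changes were 0.19 (SE 0.16) for ACTN4 and 0.10 (SE 0.18) for ACTN1. That mimic library also had the largest share of mitochondrially encoded counts, 13.3%, against 5.66 to 8.39% in the others; its part in these values was not tested.

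The turnover proteins had lower means with the mimic. CFL1 (ENSG00000172757, chr11:65590493-65629497, minus strand) had 249, 207 and 237 CPM in mimic libraries and 291, 218 and 264 CPM in control libraries, lower with the mimic on each date by a similar step (log2 ratios −0.14, −0.13 and −0.18; fold change −0.15, SE 0.16). PFN1 (ENSG00000108518, chr17:4848947-4852356, minus strand) had 256, 352 and 355 CPM in mimic libraries and 410.1, 303 and 378 CPM in control libraries, with a log2 fold change of −0.19 (SE 0.16). PFN1 was lower with the mimic on 22 August and 18 September but not on 5 September. Both sets of values overlapped between groups.

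In all, 4 of the 8 (ACTBL2, ACTB, ACTG1 and CFL1) were lower with the mimic on all 3 dates and 0 were higher on all 3, where 14.4% of tested genes were lower and 15.6% higher on all dates. Their median log2 fold change was −0.17, beside 0.00 over all 16233 genes. Of the 8, 0 passed an adjusted p of 0.05 by edgeR without a block, as did 0 of the 16233 genes (0%), while 488 of all genes had an unadjusted p under 0.05. DESeq2 with the date as a block called ACTBL2 alone of the 8, beside 0.0696% of the genes to which it gave an adjusted p. Since this contrast chose them, nothing is read from these counts.

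**Figure D3:**
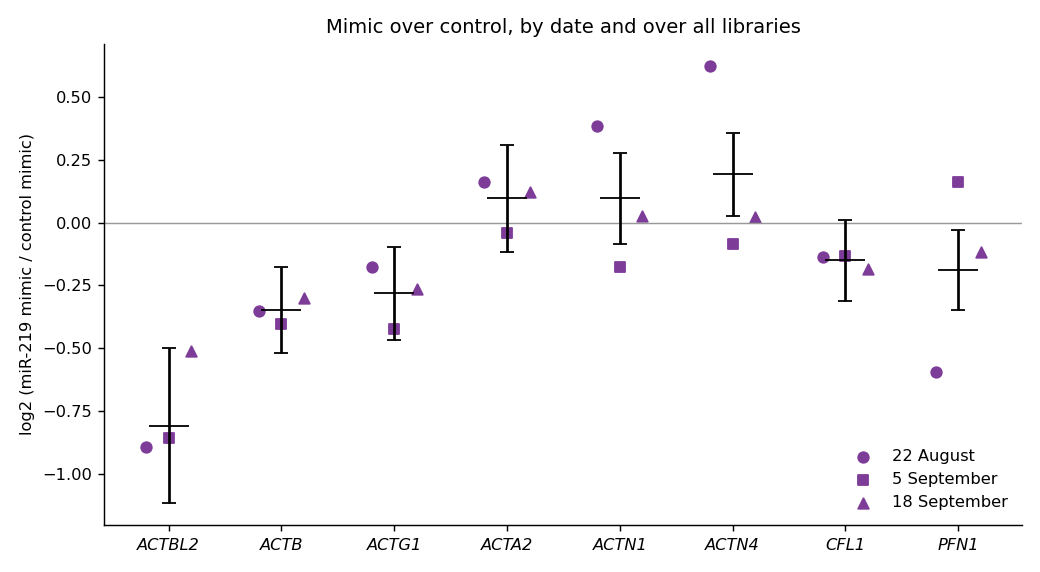
Log2 ratio of mimic over control for each gene, with points for the dates and a black bar for the fit over all 6 libraries with its standard error. ACTBL2, ACTB, ACTG1 and CFL1 lie below 0 on all 3 dates, and PFN1, ACTA2, ACTN1 and ACTN4 have both signs.

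Levels were also compared between dates, in an edgeR fit that held terms for mimic and for date, each date being compared with the other dates averaged. Date was a term of the DESeq2 fit that chose ACTBL2, which favours a gene with little spread left once date is taken out, and the same spread sets the error of a date difference. For ACTBL2 the date differences are therefore a description without a test, and their errors may be too small. The other 7 genes were not chosen by that fit and are given with their tests.

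ACTBL2 averaged 10.8 CPM on 18 September and 21.4 CPM on the other dates, a fitted log2 difference of −1.05. Both libraries of that date, 8.98 CPM for the mimic and 12.6 CPM for the control mimic, were the lowest of their group. With 1 library left out the value lay between −1.23 and −0.86. On 22 August it averaged 22.7 CPM, beside 15.5 CPM on the other dates (log2 difference 0.69), and on 5 September the log2 difference was 0.36.

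Of the other 7 genes 0 passed an adjusted p of 0.05 over all genes on any date by edgeR, and the smallest adjusted p was 0.261, for ACTN1 on 18 September. Of all tested genes 0.339% passed on 22 August (0.333% higher and 0.00616% lower), 0% on 5 September and 0.0493% on 18 September. An unadjusted p under 0.05 was met by 6.89, 12.9 and 16.4% of all genes in the same order. On 5 September DESeq2 called 60 genes.

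ACTB differed by 0.14 on 18 September (95% CI −0.11 to 0.39) and ACTG1 by 0.23 (95% CI −0.04 to 0.49), and the difference between genes in their date pattern was not tested. ACTN1 stood at −0.39 on 18 September (95% CI −0.72 to −0.06) and 0.35 on 22 August. ACTA2 stood at −0.50 on 5 September (95% CI −0.85 to −0.16) and CFL1 at 0.34 on 22 August and −0.30 on 5 September. Without the control library of 22 August, ACTN1 stood at −0.50 on 18 September and 0.58 on 22 August, and ACTA2 at −0.54 on 5 September. That omission leaves 1 library on 22 August and 1 residual degree of freedom, so no calls are read from it. ACTN4 and PFN1 differed by at most 0.17 in size on any date, with 95% CIs that held 0 throughout.

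**Figure D4:**
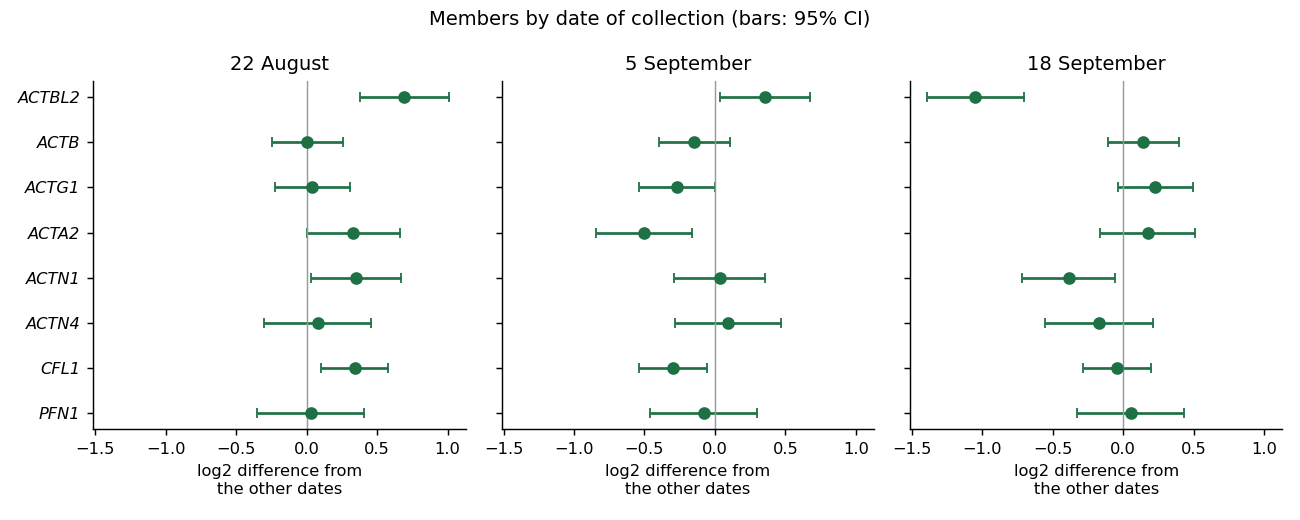
Log2 difference of each gene on 1 date from the mean of the other dates (points) with its 95% CI (bars), fitted with terms for mimic and date; the bars of ACTBL2 are not independent of its choice. ACTBL2 stands at 0.69, 0.36 and −1.05 in date order, while ACTB and ACTG1 stay within 0.27 of 0.

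Among 14046 tested genes with a mean of at least 1 CPM, the 5 whose log2 CPM followed ACTBL2 most closely over the 6 libraries were the unnamed transcript RP11-680F8.3 (Pearson r = 0.990), FAM114A1 (0.989), SERPINH1 (0.987), TUBA4A (0.987) and SEMA3A (0.982). SERPINH1, the collagen chaperone HSP47, had 239, 259.9 and 249 CPM in mimic libraries and 297, 290.0 and 264 CPM in control libraries. TUBA4A, an alpha-tubulin, had 1.33, 1.26 and 0.834 CPM in mimic libraries and 2.17, 1.77 and 1.24 CPM in control libraries. With 6 points shared by all genes such values are a description, and TUBA4A and RP11-680F8.3 alone of the 5 had a spread near that of ACTBL2, with log2 differences of −0.76 and −0.85 on 18 September. Of the other genes followed here the crosslinker ACTN1 had the highest r with ACTBL2 (0.536). Among the actins ACTB had 0.317, ACTG1 0.0731 and ACTA2 −0.211.

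CTGF, CYR61 and ANKRD1, targets of the YAP and TEAD factors that respond to the state of actin, were looked at after values of these data were known. CTGF had 125, 123 and 35.4 CPM in mimic libraries and 226, 185 and 45.3 CPM in control libraries, the same order of libraries within each group as ACTBL2 (r = 0.934, n = 6 libraries). CYR61 had 120.4, 161 and 67.2 CPM in mimic libraries and 208, 181 and 73.8 CPM in control libraries (r = 0.910), an order that differed from that of ACTBL2 in the mimic group. ANKRD1 had 67.6, 96.2 and 27.6 CPM in mimic libraries and 77.8, 86.4 and 23.3 CPM in control libraries (r = 0.737), an order that differed in both groups. All 3 were lowest on 18 September in each group. How many of all tested genes share this or reach such an r was not counted, so no link to ACTBL2 is read from it.

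The wider actin cytoskeleton was described with 144 further genes in 10 lists, of which 135 were tested. Of these 0 passed in either direction between mimic and control, beside 0% of all genes, and 2 had an unadjusted p under 0.05 (1.48%, beside 3.01% of all genes). Their median log2 fold change was 0.00 and 67 were below 0, where 49.7% of all tested genes were below 0. TPM1, a tropomyosin that lies along filaments, had 33.9, 36.7 and 38.7 CPM in mimic libraries and 56.4, 42.6 and 46.9 CPM in control libraries (log2 difference −0.42, SE 0.14). ABI2, a subunit of the WAVE regulatory complex, had 61.1, 75.4 and 70.4 CPM in mimic libraries and 54.7, 58.4 and 56.6 CPM in control libraries (log2 difference 0.28, SE 0.13). Both are named for the lowest p of their list, and their edgeR adjusted p was 0.999. For both genes the groups did not overlap on plain CPM. So it was for 5 of the 135 genes in the higher direction and 4 in the lower, beside 4.08% and 2.79% of all tested genes.

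All genes of a list come from the same 6 libraries, so counts of signs within a list are a description without a test. Filament nucleators and their activators had 24 of 28 genes above 0, with a median of 0.09. Their median was 0.31 on 22 August and −0.02 and 0.04 on the later dates. The Arp2/3 complex, which nucleates branched filaments, had 8 of 10 genes below 0 (median −0.06), with ARPC5L at −0.27 (SE 0.14). Monomer binding and turnover genes had 17 of 26 below 0 (median −0.08). WDR1, which speeds cofilin-driven disassembly, had 183, 180.2 and 212 CPM in mimic libraries and 232, 226 and 239 CPM in control libraries (log2 difference −0.28, SE 0.13). In each of these lists 0 genes passed.

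Actin folding and modification genes had 10 of 12 below 0 and the lowest median of the lists, −0.19. Its members include the chaperonin subunits that fold new actin and tubulin, and all 8 of these, a subset picked after the values were seen, were below 0, from −0.30 for CCT8 to −0.10 for CCT6A. CCT8 had 401, 464 and 498 CPM in mimic libraries and 647, 449.97 and 580.4 CPM in control libraries, which overlapped. The list's median was −0.38, −0.02 and −0.16 in date order, and 0 of its genes passed.

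Myosin II and tropomyosin genes had 11 of 17 below 0 (median −0.08). Crosslinkers and membrane links had 8 of 14 above 0 (median 0.04; ACTN2, a muscle alpha-actinin, −0.27, SE 0.21) and focal adhesion genes 9 of 15 (median 0.05; PDLIM5 0.19, SE 0.14). Of the other muscle actins only ACTA1 was tested, at 1.30, 1.91 and 3.04 CPM in mimic libraries and 2.13, 1.598 and 1.83 CPM in control libraries (log2 difference 0.13, SE 0.30). None of the 5 listed POTE genes was tested. In each of these lists 0 genes passed, and 0 of the 135 genes passed between dates in the same edgeR fit. Summed over dates there were 6 calls by DESeq2 and 20 with no filter on low counts. Over all genes these settings called 114, 60 and 145 genes and 240, 204 and 494 genes in date order.

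With 1 library left out, the median of the nucleators stayed above 0 (0.03 to 0.19), and those of monomer binding and turnover (−0.14 to −0.04) and of actin folding and modification (−0.28 to −0.10) stayed below it. The medians of the Arp2/3 complex (−0.19 to 0.03), the crosslinkers (−0.14 to 0.19), myosin II and tropomyosin (−0.14 to 0.09) and focal adhesion (−0.04 to 0.11) took both signs.

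**Figure D5:**
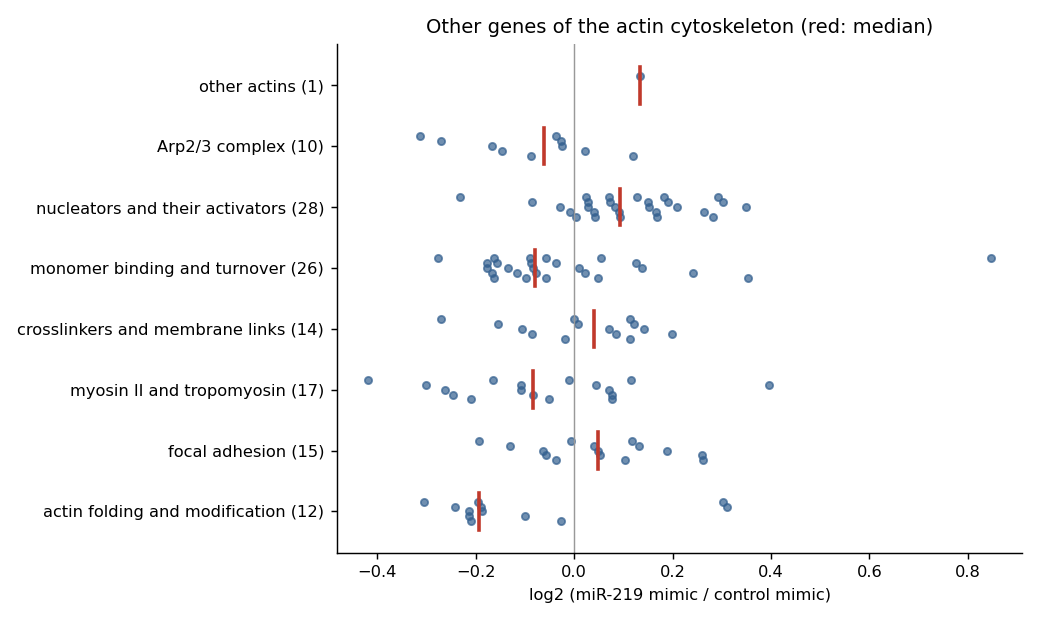
Log2 fold change of mimic over control for each tested gene of 8 actin cytoskeleton lists (points, number of genes in brackets), with the median of each list as a red line. Medians run from −0.19 for actin folding and modification genes to 0.13 for the lone tested gene of the other actins, around 0.00 for all genes.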

How the data were processed

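The authors deposited a table of counts per gene for 6 libraries, with gene models and lengths. Per the submitters' processing notes, STAR 2.5, HTSeq 0.6.1 and DESeq2 were used with hg19. Each library's column was matched by its name, with 0 left over. The quasi-likelihood test of edgeR 4.0.16 under R 4.3.3 was run on the counts (TMM, filterByExpr with min.count 10 and min.total.count 15, no block), with Benjamini-Hochberg adjustment over 16233 genes and a threshold of 0.05. limma 3.58.1 and DESeq2 1.42.0 served as alternatives. Plain CPM divided counts by the library total, and overlap between groups was judged on it. Ratios per date used TMM scaling with a prior count of 2. The standard error of a log2 value is its size divided by the root of its F statistic.

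Members and lists were chosen with earlier results of these data known. Named genes were the 8, in each list those past the threshold or otherwise the 1 with the lowest p, and the 5 most like ACTBL2. Exceptions are stated. Date contrasts were planned as tests for all 8, but ACTBL2 was chosen by a fit with a date term, so its own are given without a test. The values of 1 list, counted in the totals, are not reported here. The labels give a shared date for the library pairs, so the dates pair them; deviations of a date's libraries correlated at 0.0466, 0.154 and 0.513. No libraries of a group agreed within sampling noise (chi-square per degree of freedom of 22.9 or more). The code was tested on simulated counts. Figures used matplotlib 3.10.9. Promoters and microRNAs came from RefSeq tables.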

Additional observations from a re-analysis of the deposited data

Results flagged for a closer look

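The log2 ratio of mimic over control had opposite signs on different dates for 4 of the 8 genes. With 1 library per group and date, the difference between dates in this ratio was not tested. ACTN4 had 0.62 on 22 August, −0.09 on 5 September and 0.02 on 18 September. ACTN1 had 0.38, −0.18 and 0.03 in the same order. PFN1 had −0.60, 0.16 and −0.12. ACTA2 had 0.16, −0.04 and 0.12, close to 0 throughout.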

How the results depend on the processing

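ACTBL2 itself rested on 183 to 882 counts. Calls for the mimic, 0 in each direction, became 6 higher and 14 lower once low counts were left in, 2 higher and 3 lower by DESeq2, and 4 higher and 7 lower by DESeq2 with a replicate block of date. With the replicate block in edgeR both stayed at 0, where ACTBL2 had −0.77, and with any library left out they were 0. ACTBL2 lay between −1.11 and −0.54 with 1 library left out and between −0.82 and −0.76 otherwise. ACTBL2 to ACTB lay between −0.85 and −0.058 and ACTBL2 to ACTG1 between −0.95 and −0.098 with 1 library left out. On 22 August, 5 September and 18 September, genes past the threshold numbered 55, 0 and 8, against 240, 204 and 494 with no filter and 114, 60 and 145 with DESeq2; on the later dates they were 14 and 41 without a mimic term, and on 18 September 20 without AGO2 and mitochondrial genes. With 1 library left out, which leaves 1 residual degree of freedom, they ran from 54 to 1363, 9 to 2344 and 3 to 3748. The ACTBL2 difference, given without a test, was 0.71 on 22 August and −1.08 on 18 September with no filter and −1.05 on 18 September with DESeq2, and with 1 library left out it lay between 0.60 and 0.78 and between −1.23 and −0.86. List genes past the threshold between dates went from 0 to 20 with no filter and 6 with DESeq2, and from 0 to 89 with 1 library left out. Of the other values recomputed, 271 kept their call or moved by less than the spread between libraries, 16 moved further and 3 passed where they had not. ACTA2 (−0.04) and ACTN1 (−0.12) had the other sign with 1 library left out. The cause of these changes was not tested.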
